A study of Mus musculus with 8 samples.

Results

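Aminoacyl-tRNA synthetases attach each amino acid to its transfer RNA, the step that supplies charged tRNA to the ribosome. The set described here holds 36 synthetase genes of the 21879 genes in the deposited table, 20 coding for the cytosolic enzymes and 16 for the mitochondrial enzymes, whose symbols end in 2. Members were matched by gene symbol, each under its older name (Nars, Tars and so on). The matching used no measured value, but the members were chosen with earlier results of these data known. All 36 passed the filter on low counts and were tested.

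The measurements are poly(A)-selected RNA sequencing of TCMK-1, a mouse line of transformed tubule epithelium from kidney. A control shRNA had been given to the cells of 4 control libraries, and an shRNA against smgGDS, by which a knockdown line was established, to those of 4 knockdown libraries. Rap1gds1 encodes smgGDS, which promotes nucleotide exchange on several small GTPases. Cells of both groups had received 20 µM cisplatin, a DNA-crosslinking platinum drug that injures the kidney tubule, so the comparison concerns the knockdown within treated cells. The labels do not say whether the 4 libraries of a group were separate cultures or clones, so a p-value here reflects library-to-library spread, which may be technical.

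As background, the cytosolic enzymes serve nuclear-encoded translation, and the mitochondrial enzymes serve the small set of proteins made inside the organelle. Several of the cytosolic enzymes sit together in the multi-synthetase complex, held by scaffold proteins. When uncharged tRNA accumulates, the kinase GCN2 phosphorylates eIF2, and when unfolded protein accumulates in the endoplasmic reticulum, PERK does so. Either route raises the translation of ATF4, a transcription factor known to drive many cytosolic synthetase genes, asparagine synthetase and amino acid transporters. The study's title names PERK-dependent endoplasmic reticulum stress, and the question put to the synthetases is whether their transcripts differ when smgGDS is depleted.

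Total expected counts per library were 11560977 to 16059158. The knockdown was present in the RNA: Rap1gds1 fell to 16.2% of its control level (-2.62 as a log2 fold change, where a negative value means lower after knockdown, SE 0.13, edgeR adjusted p = 2.72e-19). The first principal component, with 32.1% of the variance, separated the groups, with controls at -15.12 to -7.68. On it the score of knockdown replicate 4 was 18.36, and those of knockdown replicates 1 to 3 were 8.03 to 8.49. Of 12 tubule epithelial markers 8 had enough counts to be tested, but Krt8, Krt18, Epcam, Lrp2 and Cubn were low, at control means of 0.87 to 2.75 CPM. The defining cadherin Cdh1 reached at most 5 counts in any library. The summed tubule level was 176 to 190 CPM in controls and 151 to 159 CPM with smgGDS depleted, and the 1 called tubule marker was Aqp1, at means of 155 and 127 CPM. Of 7 leukocyte markers 2 were tested (summed level 130 to 139 CPM, then 111 to 122 CPM, where Cd14 fell and Cd68 was not called), Adgre1 and Cd3e had 0 counts, and Ptprc reached at most 1. Of 5 endothelial markers 1 was tested (summed level 7.54 to 9.58 CPM, then 11.9 to 13.7 CPM), and Pecam1 and Cdh5 reached at most 5 and 3 counts. Of 6 fibroblast markers, 4 were tested and all 4 of these rose, with a summed level of 297 to 323 CPM in controls against 356 to 407 CPM in knockdown libraries. The part of these shifts in the synthetase results was not tested.

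Some cytosolic synthetase transcripts were slightly higher in the knockdown. Of 20 genes, 7 rose, namely Nars, Tars, Lars, Sars, Wars, Eprs and Dars. They rose by 11.4% to 17.1% with TMM scaling, and by less with library totals alone or on FPKM, where Sars was at 0.10 on the log2 scale in place of 0.16. Over all 11576 genes tested, 11.1% were called higher and 9.15% lower by the same rule, edgeR's quasi-likelihood test with Benjamini-Hochberg adjusted p under 0.05. No cytosolic member was called lower by edgeR, DESeq2 or limma voom, and 0 had a lower estimate at an unadjusted p under 0.05. Estimates were above 0 for 17 of the 20 and the median log2 fold change was 0.07, against 0.00 over all tested genes. Of the mitochondrial enzymes, 1 fell, Aars2, and 0 rose, with a median of -0.06. The difference between the lists itself was not tested.

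**Figure D1:**
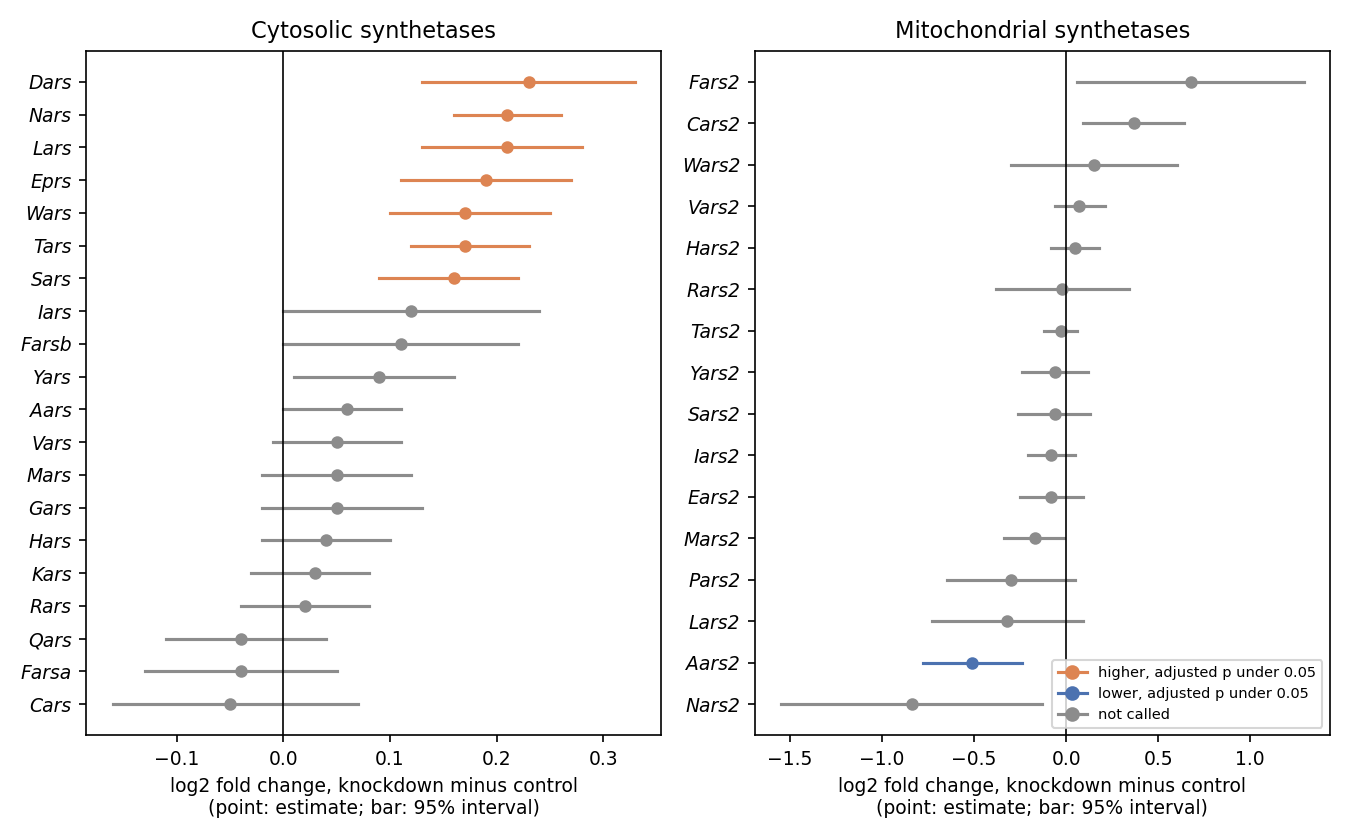
Log2 fold change (x axis, knockdown minus control) of the 20 cytosolic (left) and 16 mitochondrial (right) synthetase genes, with points for edgeR estimates and bars for 95% intervals. The x axes differ in scale. The 7 called cytosolic genes lie between 0.16 and 0.23, and the called mitochondrial gene Aars2 lies at -0.51.

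Promoters of members with one motif are shown first, because ATF4 with its C/EBP partners is known to bind such sites. The motif TGATGNAA was searched on both strands in the 250 bases before each start listed in the RefSeq promoter table for GRCm38.p6. For some members the window lay inside the gene's annotated range, as for Aars2 and for Eprs (window 185362794 to 185363043, gene from 185361417). Of the 13 cytosolic members with an entry 3 held it, of which Tars and Gars are shown, and 1 of these 3, Tars, rose. The third, Aars, had its window inside the gene, with 202 of the 250 bases in Aars exons. That match is therefore not shown to lie upstream of the gene. Of the 14 mitochondrial members with an entry 0 held the motif. The windows of Ears2 and Fars2 lay wholly in annotated exons. For Sars2 a stretch just after the listed start was not found in the gene's annotated transcripts. The count of 0 therefore does not show absence from the mitochondrial promoters. The share that held the motif was 3.91% among all 27025 genes with an entry, and 2.4% among the 9289 of them tested here. Sequences run 5′ to 3′ in the direction of the gene, capitals mark the match, and the match reads TTNCATCA in that direction.
Tars, chr15:11399666-11399785, minus strand: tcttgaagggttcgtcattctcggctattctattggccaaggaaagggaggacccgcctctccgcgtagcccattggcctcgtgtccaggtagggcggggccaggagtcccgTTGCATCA
Gars, chr6:55037881-55038000, plus strand: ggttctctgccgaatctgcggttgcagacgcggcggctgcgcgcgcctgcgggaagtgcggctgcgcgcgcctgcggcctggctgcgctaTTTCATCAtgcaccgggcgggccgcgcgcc
The matches begin 15 bases before the annotated start in Tars and 30 in Gars. Gars (0.05, SE 0.04) was not called. Dars, Eprs and Sars, which rose, had an entry without a match in this window. For Dars and Sars a stretch just after the listed start was not found in the gene's annotated transcripts, and the Eprs window lay inside the gene. Absence of the motif from their promoters is therefore not shown. Cars, Hars, Lars, Nars, Rars, Vars, Wars, Hars2 and Pars2 had no entry.

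Nars, which charges tRNA with asparagine, was the most abundant cytosolic member and had the smallest p-value of the set. It lies on chromosome 18 of GRCm38.p6 at 64499655 to 64516515. Controls 1 to 4 had 1406.6, 1349.7, 1354.6 and 1409.1 normalised counts scaled to library size (CPM), and knockdown libraries 1 to 4 had 1589, 1652.1, 1538 and 1604.3. Every knockdown library stood above every control. The log2 fold change was 0.21 (SE 0.03, edgeR adjusted p = 1.32e-07). Its companion in asparagine supply, the asparagine synthetase gene Asns, rose by 0.10 (SE 0.03, edgeR adjusted p = 0.0116). Asns lost its call without knockdown replicate 1 (adjusted p = 0.0529), with library totals alone (adjusted p = 0.296) and on FPKM (adjusted p = 0.338).

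Tars, which charges threonine, lies on chromosome 15 at 11383663 to 11399658. It had 1104.7, 1073.3, 1080.4 and 1110.1 CPM in controls 1 to 4 against 1232.7, 1211.6, 1226.7 and 1255.8 CPM in knockdown 1 to 4. The groups were narrow and apart, with SDs of 18.0 and 18.4 CPM around means of 1092.1 and 1231.7 (n = 4 each). The log2 fold change was 0.17 (SE 0.03, edgeR adjusted p = 2.79e-06).

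Sars, the seryl enzyme, which also charges the tRNA used for selenocysteine, lies on chromosome 3 at 108424864 to 108445259. Its CPM values were 335, 338, 336 and 344 in controls and 378, 390, 366 and 372 in the knockdown. The lowest knockdown library exceeded the highest control (log2 fold change 0.16, SE 0.03, edgeR adjusted p = 0.000139). Wars, the tryptophanyl enzyme and a gene that interferon-gamma is known to induce, lies on chromosome 12 at 108860030 to 108894175. It had 161, 165, 165 and 164 CPM in controls against 184, 190, 178 and 187 CPM in knockdown libraries. Its log2 fold change was 0.17 (SE 0.03, edgeR adjusted p = 0.000217), again without overlap of the groups.

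Of the called genes, 3 encode enzymes of the multi-synthetase complex. Lars, the leucyl enzyme, which also signals leucine to mTORC1, lies on chromosome 18 at 42202298 to 42262237. It had 169, 166, 180 and 171 CPM in controls against 201, 207, 185 and 200 CPM in knockdown libraries (an estimate of 0.21, SE 0.04, edgeR adjusted p = 3.98e-05). Eprs, a single protein that charges both glutamate and proline, lies on chromosome 1 at 185361417 to 185428360. It had 146, 137, 147 and 151 CPM in controls against 156, 167, 166 and 175 CPM in knockdown libraries (an estimate of 0.19, SE 0.04, edgeR adjusted p = 0.000245). Control replicate 2 was its lowest library and knockdown replicate 4 its highest. Dars, the aspartyl enzyme, lies on chromosome 1 at 128363707 to 128417416. Its controls spread more widely, at 87, 72.6, 78.5 and 84.7 CPM, and all lay below the knockdown libraries at 97.8, 94.8, 95.8 and 88.9 CPM. The log2 fold change of Dars, 0.23 (SE 0.05, edgeR adjusted p = 0.000666), was the largest estimate of the cytosolic list.

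**Figure D2:**
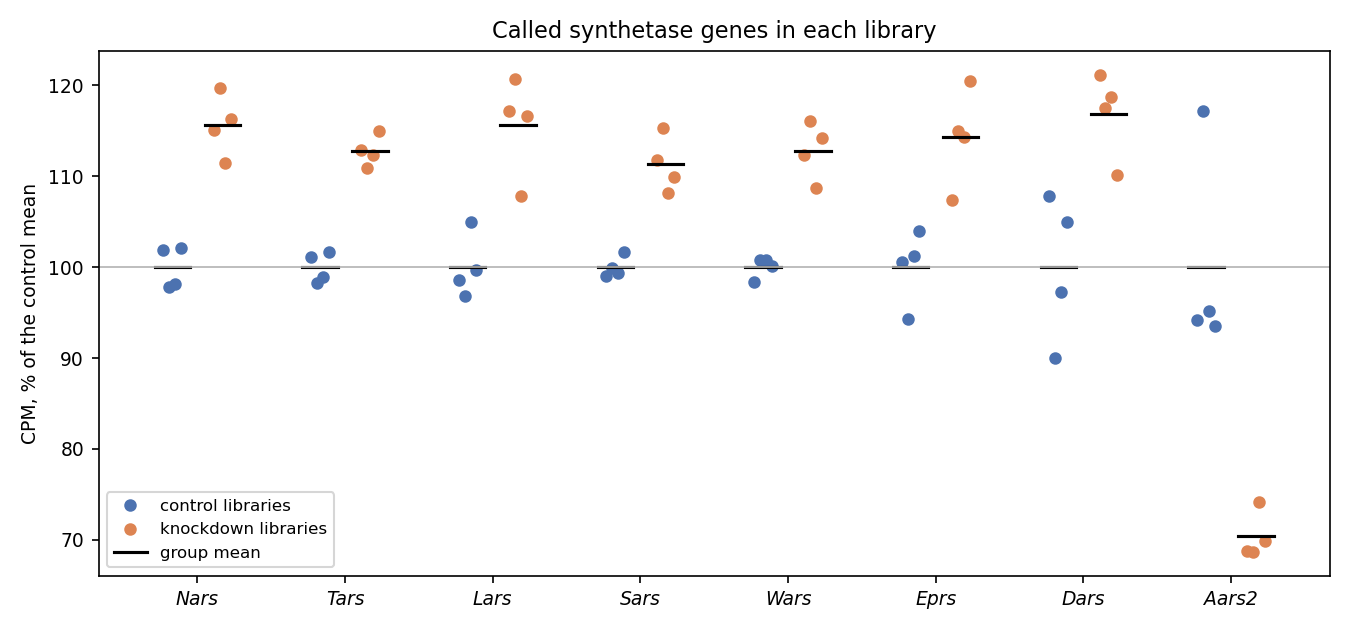
CPM of the 7 called cytosolic genes and of Aars2 in each library, as a percentage of that gene's control mean (y axis), with points for libraries and bars for group means. All 4 knockdown libraries lie above all 4 controls for the 7 cytosolic genes and below them for Aars2, where control replicate 2 stands above the other controls.

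The other 13 cytosolic genes did not pass the test. Groups did not overlap for Yars, the tyrosyl enzyme (145, 141, 136 and 142 CPM against 149, 149, 152 and 148 CPM, with an estimate of 0.09, SE 0.04, edgeR adjusted p = 0.0929). The same held for Aars, the alanyl enzyme (718, 726, 730 and 722 CPM against 745, 769, 754 and 742 CPM, with an estimate of 0.06, edgeR adjusted p = 0.148). With the 7 called genes this made 9 of 20 members whose knockdown libraries all exceeded the controls, and 0 the reverse. Over all tested genes 11.5% had all knockdown libraries above all controls and 9.61% had all below. Iars (0.12) and Farsb (0.11) had estimates above those of Yars but wider errors of 0.06 each, and their groups overlapped. Vars, Gars, Mars, Hars, Kars and Rars had estimates of 0.02 to 0.05, and Qars, Farsa and Cars of -0.04, -0.04 and -0.05. The median rise of the 7 called genes was 0.19. The 95% interval lay wholly below that value for 11 of the 13, with Iars and Farsb reaching it. The value comes from genes picked by the same test, so it cannot show that called and uncalled genes are separate classes.

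Genes called higher lay both inside and outside the multi-synthetase complex. Inside it 3 of 8 enzymes rose (Lars, Eprs and Dars, median of the 8 at 0.08), and Iars, Mars, Qars, Rars and Kars were not called. Outside it 4 of 12 rose (median 0.07). Of the scaffold genes, 0 of 3 was called by edgeR, DESeq2 or voom, and 0 had an unadjusted p under 0.05. Aimp1 and Eef1e1 had estimates of 0.07 and 0.09, and Aimp2 of -0.05. Aimp2 was called lower with library totals alone and on FPKM, at -0.11 in both. Farsa and Farsb, the alpha and beta subunits of phenylalanyl-tRNA synthetase, had estimates of opposite sign, -0.04 (SE 0.04) and 0.11 (SE 0.06). By the fold of the catalytic domain, 2 of 9 class I and 4 of 10 class II enzymes rose, and Eprs carries one domain of each kind. Against 11.1% called higher over all genes these are small groups, and differences between them were not tested. Gars and Kars, whose single genes supply both compartments, were not called, with upper limits of the 95% interval at 0.13 and 0.08.

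Most mitochondrial members were not called. Of the 16 genes 1 fell and 0 rose by edgeR. DESeq2 and voom also called 0 higher, limma on FPKM called 1, and 2 had a higher estimate at an unadjusted p under 0.05. Aars2, the mitochondrial alanyl enzyme, lies on chromosome 17 at 45503515 to 45520843. It had 7.32, 9.11, 7.4 and 7.27 CPM in controls against 5.35, 5.34, 5.77 and 5.43 CPM in knockdown libraries, which correspond to 85 to 151 and 68 to 75 counts. The log2 fold change was -0.51 (SE 0.13, edgeR adjusted p = 0.00445). Control replicate 2 was the highest library, and over all 17 alternatives the estimate lay between -0.57 and -0.42 with an adjusted p of at most 0.0393.

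The next 3 mitochondrial genes by p-value were low in counts and not called. Cars2, the cysteinyl enzyme, had 5.54, 5.91, 6.28 and 5.22 CPM in controls against 8.78, 7.38, 6.41 and 7.03 CPM in knockdown libraries. Its groups did not overlap, and its adjusted p of 0.0501 (edgeR, log2 fold change 0.37, SE 0.14) lay at the threshold. It passed without knockdown replicate 3 (adjusted p = 0.0329), among genes of at least 5 CPM (adjusted p = 0.0415) and with a replicate block (adjusted p = 0.0457). Exons of Cars2 overlap Naxd on the opposite strand, and whether counting used the strand is not stated. Nars2, the asparaginyl enzyme, had 14, 20, 27 and 18 counts in controls and 9, 9, 6 and 15 in the knockdown (log2 fold change -0.84, SE 0.35, edgeR adjusted p = 0.0882). It passed without knockdown replicate 4 (-1.14, adjusted p = 0.0419). Fars2, the phenylalanyl enzyme, had 15, 18, 23 and 8 counts in controls and 21, 25, 15 and 29 in the knockdown (0.68, SE 0.30, edgeR adjusted p = 0.112). It passed without control replicate 3 (0.92, adjusted p = 0.0496) and on FPKM (0.46, adjusted p = 0.0453).

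Errors were wider in the mitochondrial list, with a median SE of 0.11 against 0.04 in the cytosolic list, and control levels of 1.07 to 121 CPM against 38.5 to 1380 CPM. Of the 16 mitochondrial intervals 11 lay wholly below 0.19, the median rise of the called cytosolic genes. So did 11 of the 20 cytosolic intervals, and the value comes from genes picked by the same test, so this does not set the lists apart. The 5 mitochondrial genes whose intervals reached 0.19 were Cars2, Fars2, Rars2, Vars2 and Wars2. Mars2 was at -0.17 (SE 0.08, edgeR adjusted p = 0.143) and passed with library totals alone (-0.23) and without knockdown replicate 2 (-0.25). Hars2 and Hars are neighbours on chromosome 18 with overlapping exons on opposite strands, and their estimates were 0.05 and 0.04.

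**Figure D3:**
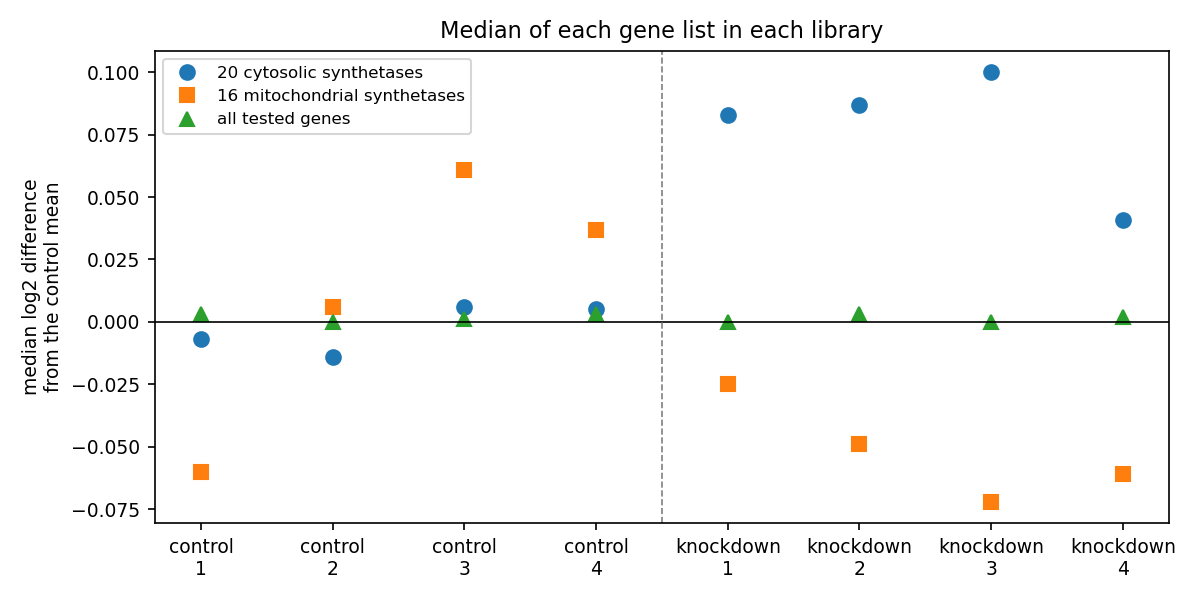
Median over the 20 cytosolic genes, the 16 mitochondrial genes and all tested genes of the log2 difference between a library and the control mean (y axis), for each of the 8 libraries (x axis). The cytosolic median is 0.041 to 0.1 in knockdown libraries and -0.014 to 0.006 in controls. The mitochondrial medians of the groups overlap.

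By library, the cytosolic median stood at 0.083, 0.087, 0.1 and 0.041 above the control mean on the log2 scale in knockdown replicates 1 to 4. Knockdown replicate 4 was the lowest of these. Without it the same 7 genes were called and the median fold change of the list was 0.09. The summed cytosolic level was 7195.2 ± 65.5 CPM in controls against 7764.1 ± 80.4 CPM after knockdown (SD, n = 4 each). The mitochondrial sum was 330 ± 4.8 and 321 ± 11.3 CPM. On the authors' FPKM the cytosolic sum was 2776.2 ± 11.2 and 2874.9 ± 46.7, a smaller rise. The mitochondrial FPKM sum was 136 ± 2.4 and 128 ± 4.47, with every knockdown library below every control by a narrow margin (131 against 132). On FPKM the median log2 change was -0.05 over all tested genes, 0.02 over the cytosolic list and -0.09 over the mitochondrial list. With library totals in place of TMM factors, the median of all genes moved to -0.06, of the cytosolic list to 0.01 and of the mitochondrial list to -0.12. The same 7 cytosolic genes were still called higher and 0 lower, where 6.62% of all genes were called higher and 16.9% lower. Mitochondrial calls were then 2 lower, Aars2 and Mars2. Among the 13 uncalled cytosolic genes the sign of several small estimates depended on this scaling.

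Levels were compared between genes per transcript length, on the authors' FPKM. Nars (531 ± 11.0 FPKM in controls), Kars (434 ± 6.55) and Tars (422 ± 5.74) were highest and made up 50% of the summed cytosolic FPKM (SD, n = 4 each). Iars was lowest at 8.91 ± 0.473. The mitochondrial list ran from Tars2 at 52.0 ± 1.56 to Nars2 at 0.53 ± 0.21, so the asparaginyl enzymes stood at the top of one list and the bottom of the other. Called cytosolic genes were found both near the top (Nars and Tars) and in the lower part (Dars at 36.9 ± 2.81 and Eprs at 34.0 ± 0.839).

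**Figure D4:**
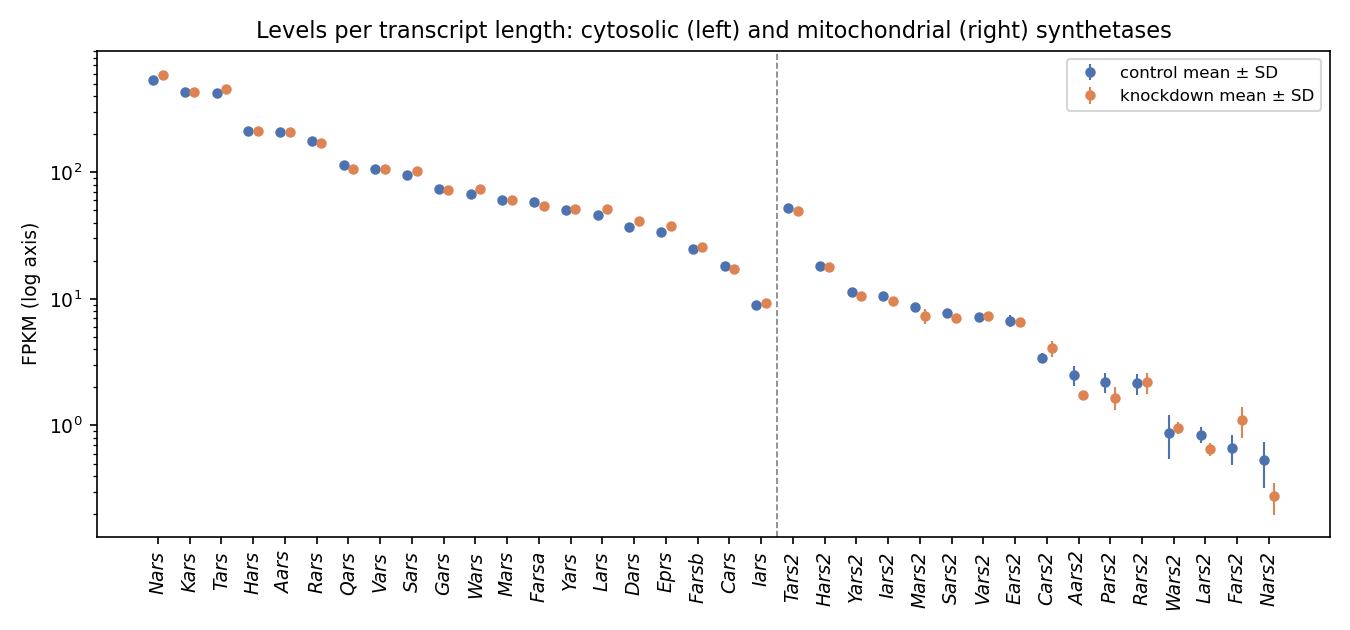
FPKM (log axis) of the 36 synthetase genes as mean ± SD of 4 control and 4 knockdown libraries, ordered by control level within the cytosolic (left) and mitochondrial (right) lists. The cytosolic genes run from 531 to 8.91 FPKM and the mitochondrial genes from 52.0 to 0.53 FPKM.

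The cytosolic and mitochondrial enzymes of one amino acid were compared as a ratio within each library, which does not depend on library scaling except through the pseudocount of 0.5 CPM. Of 17 pairs the cytosolic transcript had the higher control FPKM in 16. The exception was isoleucine, with Iars at 8.91 and Iars2 at 10.6 FPKM. The knockdown libraries all exceeded the controls in 6 pairs and all lay below them in 1. For single genes, the shares over all tested genes were 11.5% above and 9.61% below, and no such share was computed for gene pairs. The pairs are not independent, since Eprs and Fars2 each enter more than 1. Several of the ratios without overlap hold a gene called by itself (Lars, Eprs, Sars, Tars or Aars2), so they are not separate results. Each of the 7 pairs without overlap had an exact permutation p of 0.0286, the smallest that 4 against 4 libraries allow (two-sided). The adjusted permutation p was 0.0695 over the 17 pairs, so no pair passed. With this smallest p, 1 pair alone could not pass however large its change, so the adjusted test cannot decide for single pairs.

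For alanine the log2 ratio Aars/Aars2 was 6.52, 6.24, 6.53 and 6.54 in controls and 6.99, 7.04, 6.91 and 6.97 in the knockdown. Aars itself was not called, and the difference of 0.52 was close to the fall of 0.51 in Aars2. For leucine the ratio Lars/Lars2 was 5.47, 5.78, 5.52 and 5.36 in controls and 6.04, 5.89, 6.08 and 6.07 in the knockdown. Lars2 itself had 3.32, 2.53, 3.42 and 3.68 CPM against 2.57, 2.98, 2.24 and 2.48 CPM and was not called (-0.32, SE 0.20). For glutamate the ratio Eprs/Ears2 changed by 0.27. Ears2 had 19, 19.3, 18.8 and 20.9 CPM against 18.1, 17.7, 18.1 and 19.8 CPM, and since some of its counts were fractions, reads may be shared with another gene.

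For threonine Tars/Tars2 changed by 0.20. Tars2 had 123, 121, 124 and 116 CPM in controls against 122, 122, 122 and 107 CPM in knockdown libraries, where replicate 4 was apart from the other 3. For serine Sars/Sars2 changed by 0.22, with Sars2 at 13.2, 13.8, 14.7 and 15.1 CPM against 13.8, 12.3, 14 and 14.1 CPM. For isoleucine the change was 0.20 although neither enzyme was called. For cysteine all knockdown ratios lay below the controls, with a change of -0.38. Cars2 is described above, and Cars itself was not called, with Cars at 48.8, 51.1, 50.3 and 43.6 CPM against 46.3, 48.2, 48.3 and 45.4 CPM.

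In the other 10 pairs the groups overlapped. For phenylalanine Farsa/Fars2 changed by -0.56 (exact permutation p = 0.0857) and Farsb/Fars2 by -0.41 (exact permutation p = 0.229), both with the low-count gene Fars2 as denominator. The ratio Nars/Nars2 changed by 0.78 with SDs of 0.36 and 0.32 (exact permutation p = 0.0571). Wars2 had 2.65, 2.05, 2.51 and 2.31 CPM against 3.42, 2.12, 2.64 and 2.32 CPM, and Wars/Wars2 changed by 0.07 (exact permutation p = 0.714). Pars2, the prolyl enzyme, had 4.49, 5.79, 4.19 and 5.39 CPM against 4.92, 3.77, 4.41 and 2.96 CPM, and Eprs/Pars2 changed by 0.48 (exact permutation p = 0.0857).

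**Figure D5:**
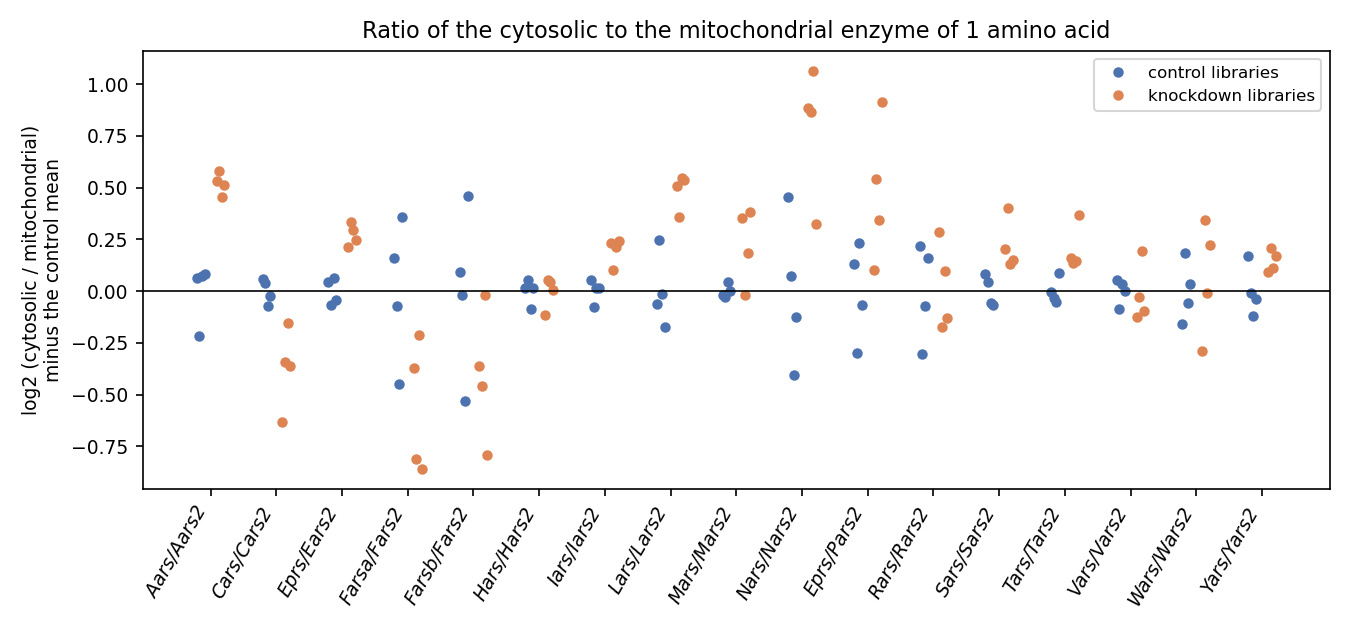
Log2 ratio of the cytosolic to the mitochondrial transcript in each library minus its control mean (y axis) for 17 pairs (x axis), with points for the 4 control and 4 knockdown libraries. Knockdown points lie above all control points in 6 pairs and below them in Cars/Cars2.

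Among 19 further genes that work with the synthetases, 18 were tested, 2 rose and 2 fell, with a median of 0.05. Over all tested genes 11.1% were called higher and 9.15% lower, so these counts are near the background. Xpot, which exports mature tRNA from the nucleus, had 117, 115, 119 and 119 CPM in controls against 135, 131, 128 and 140 CPM in knockdown libraries. All 4 knockdown libraries were above the controls (log2 fold change 0.19, SE 0.04, edgeR adjusted p = 0.000457), and on FPKM the change of 0.13 was not called (adjusted p = 0.068). Eef1a1, the elongation factor that carries charged tRNA to the ribosome, rose by 0.08 (SE 0.02, edgeR adjusted p = 0.0105). That call was lost with library totals alone and on FPKM, at 0.03 in both.

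The 2 genes that fell encode subunits of one mitochondrial enzyme. Mitochondria make glutaminyl-tRNA indirectly: the glutamyl enzyme first charges the glutamine tRNA with glutamate, and an amidotransferase of 3 subunits converts it. The subunit gene Gatc had 26.4, 25.8, 24.6 and 22.1 CPM in controls against 20, 21.4, 21.6 and 19.3 CPM in knockdown libraries (-0.27, SE 0.08, edgeR adjusted p = 0.0115). Qrsl1, its catalytic subunit, had 5.6, 5.37, 5.72 and 4.28 CPM in controls against 4.21, 2.91, 3.44 and 3.91 CPM in knockdown libraries (-0.54, SE 0.17, edgeR adjusted p = 0.0172). Neither group overlapped the other for these 2 genes, although the margin for Qrsl1 was narrow. The third subunit gene Gatb was low, at 1.88 ± 0.187 and 1.91 ± 0.232 CPM, and not called. Mtfmt, which formylates the mitochondrial initiator tRNA, was not called either (-0.23, SE 0.13, edgeR adjusted p = 0.252). These calls were fragile: without control replicate 1 neither passed, with adjusted p of 0.0563 for Gatc and 0.0546 for Qrsl1. Leaving out control replicate 3 (adjusted p = 0.0522) or knockdown replicate 2 (adjusted p = 0.0689) also ended the call of Qrsl1.

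Of the genes upstream of the synthetases, the kinase genes did not share a call. Eif2ak3, which encodes PERK, had 4.55, 5.19, 3.63 and 4.11 CPM in controls against 3.42, 1.89, 1.76 and 2.4 CPM in knockdown libraries (-0.88, SE 0.20, edgeR adjusted p = 0.00128). These values correspond to 48 to 86 counts in controls and 22 to 48 in knockdown libraries. Eif2ak4, which encodes GCN2, was not called, at 7.88, 8.63, 6.21 and 7.36 CPM against 6.35, 8.17, 8.17 and 9.43 CPM (0.08, SE 0.13, edgeR adjusted p = 0.719). Atf4 mRNA was not called either (0.04, SE 0.03, edgeR adjusted p = 0.302). These are transcript levels, and neither PERK activity nor ATF4 protein was measured here. Trib3, a pseudokinase gene that ATF4 drives, rose by 0.22 (SE 0.04, edgeR adjusted p = 8.41e-05). Ddit3, encoding CHOP, which promotes death of stressed cells, rose by 0.18 (SE 0.03, edgeR adjusted p = 6.4e-05). Exons of Ddit3 overlap those of the methionyl enzyme gene Mars on the opposite strand, so that reads of the 2 may not be told apart. Mars had 169, 173, 176 and 183 CPM in controls against 186, 179, 183 and 175 CPM in knockdown libraries and was not called (0.05, SE 0.04). Of the 36 members 13 share exon bases with another annotated gene, and 0 of the 8 called members do.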

How the data were processed

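RNA of 8 libraries was analysed. Expected counts (estimates, so fractions occur) and FPKM stand side by side for each gene in the deposited table, per the file headers. Per the submitters' processing notes, the build was GRCm38.p6, and edgeR, DESeq2, RSEM, StringTie 1.3.1, HISAT2 2.4, Bowtie2 2.2.8 and fastp 0.18.0 were used, with no role stated. Annotation and strandedness: not given in the sources used here. Of the values, 6.52% were not whole (tolerance 1e-09), and 1 member, Ears2, had such values.

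The deposited expected counts were rounded, and R 4.3.3 with edgeR 4.0.16 gave the tests (TMM, filterByExpr, robust quasi-likelihood F-test on group, two-sided, Benjamini-Hochberg over 11576 genes, threshold 0.05). CPM values are TMM-normalised. A standard error is the estimate divided by the root of F, and intervals are 95% intervals. FPKM was tested in limma 3.58.1 as log2(FPKM + 0.5), and DESeq2 1.42.0 and voom were alternatives. Of 3 counts, the value per library is 0.187 to 0.259 CPM, counting error only. Replicates of a group differed by more than sampling noise (chi-square per degree of freedom 1.92 to 3.81). The procedure was tested on simulated data, where recovery was required only for changes far larger than those of the called synthetases. Members, lists, motif and tests were chosen with earlier results of these data known. Named in full are the 6 cytosolic and 4 mitochondrial members of smallest adjusted p, all called members and their counterparts, up to 4 partner genes, and 7 upstream genes. Other members were named after their values were seen, and the pair ratios were added after seeing the data. A partner gene of the planned list and a promoter stretch are not reported here.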

Additional observations from a re-analysis of the deposited data

Results flagged for a closer look

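In 5 of 72 groups of 4 libraries (36 genes, 2 groups) 1 library lay far from the other 3, where chance alone marks about 1 group in 20. Gars in control replicate 2 was at 182 CPM against 168 to 169 in the other controls. Aars2 in control replicate 2 was at 9.11 CPM against 7.27 to 7.4, and its fall in the knockdown was called without that library as well. Hars2 in knockdown replicate 1 was at 38.4 CPM against 34.6 to 34.8. Sars2 in knockdown replicate 2 was at 12.3 CPM against 13.8 to 14.1. Tars2 in knockdown replicate 4 was at 107 CPM against 122 in the other 3, and its estimate turned from -0.03 to 0.01 without that library.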

How the results depend on the processing

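The same 7 cytosolic genes were called higher, and 0 lower, under each of the 17 alternatives, including a replicate block and every library left out. Their estimates were smallest with library totals alone and on FPKM (0.10 to 0.17), and on FPKM some lay near the threshold, with adjusted p of 0.0487 for Sars, 0.048 for Dars and 0.0341 for Eprs. With library totals alone 766 genes rose and 1951 fell, 2 mitochondrial genes fell, and 1 partner gene rose and 5 fell. On FPKM 592 genes rose and 1481 fell, 1 mitochondrial gene rose, and 0 partner genes rose and 3 fell. At an adjusted p of 0.01, 825 genes rose and 580 fell, with 1 partner rise and 0 falls. One mitochondrial gene, Cars2, rose among genes of at least 5 CPM and with the replicate block. Of partner genes, 1 fell in that higher-count set, which does not hold Qrsl1. Whether the replicate numbers pair the libraries is not settled, since deviations of same-numbered libraries correlated only weakly, at -0.034 to 0.104. Control replicates 1, 2 and 4 correlated best with the knockdown library of the same number, and control replicate 3 with knockdown replicate 4. The replicate block gave 1425 rises and 1235 falls over all genes. With 1 library left out, mitochondrial rises were 0 to 1 and falls 1 to 2, and partner falls 0 to 3.

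Estimates that changed sign were of uncalled genes. With library totals alone they were Aars 0.00, Gars 0.00, Hars -0.01, Kars -0.03, Mars -0.01, Rars -0.04, Vars -0.01, Hars2 -0.01, Gatb -0.03 and Atf4 -0.01. On FPKM they were Gars 0.00, Hars -0.01, Kars -0.03, Mars -0.01, Rars -0.04, Vars 0.00, Hars2 -0.03, Rars2 0.03, Gatb -0.07 and Atf4 -0.01. Without knockdown replicate 4 they were Qars 0.01, Tars2 0.01, Gatb -0.06 and Eif2ak4 0.00. Without knockdown replicate 1 they were Rars2 0.07 and Wars2 -0.01. Rars2 was 0.11 without control replicate 2, 0.01 without control replicate 3 and 0.01 without knockdown replicate 3, and Gatb was -0.01 without control replicate 3. With any 1 library left out, the range was -0.12 to 0.11 for Rars2, -0.05 to 0.01 for Tars2, -0.01 to 0.24 for Wars2, -0.06 to 0.1 for Gatb and 0.00 to 0.19 for Eif2ak4. The cause was not tested. Depth limits Fars2, Nars2, Lars2 and Wars2, with at most 54 counts in a library.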
